A study of Mus musculus with 12 samples.

Results

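The cochlea is a coiled organ in which each place along the spiral answers best to its own pitch, with high tones at the base and low tones at the apex, and cells mature from the base toward the apex. A gene whose signal differs between the ends is said to have an apex-base gradient. The question here is which of these gradients were gained, lost or turned round between the day of birth (postnatal day 0, P0) and postnatal day 8 (P8), before mice begin to hear. It was addressed with the 8 base and apex arrays of a series of 12 arrays, 4 per age. The 4 middle arrays entered the choice of the tested genes, the estimate of the spread and a description of the middle turn.

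All samples were wild-type cochleae of C57BL/6 mice, with no treatment. At each age, and in each of 2 dissection sets, tissue of about 80 temporal bones was pooled. The otic capsule was taken off, the sensory epithelium was left with the limbus and the lateral wall, and the spiral was cut into base, middle and apex. There were thus 6 groups with 2 arrays each, 1 from either dissection set, and the 3 pieces of an age and set came from the same animals. An array shows the mean of many animals and of every cell type in the piece, so that fewer cells of a type and less RNA per cell cannot be told apart.

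The signals were log2 values after robust multiarray averaging (RMA), and 16306 genes above the log2 level of 6 in at least 1 group were tested. The gradient is the apex signal minus the base signal, and its change is the gradient at P8 minus the gradient at P0, always on the log2 scale. The 2 arrays of a group differed by an SD with a median of 0.175 over these genes, and their number limits the precision of every value. The array medians ran from 8.02 to 8.19. Cochlear genes were high on the arrays, such as group means of 11.17 to 13.12 for Tectb, a tectorial membrane protein. Skeletal muscle, which is no part of the cochlea, had its highest mean signal over 26 genes on the P0 apex array of set 1, at 7.44 against 6.82 to 7.02 on the 11 other arrays. None of these 26 muscle genes passed the test for a change of gradient (1 toward the apex and none toward the base at an unadjusted p under 0.05). A signal high on 1 of the 2 arrays of a group widens the spread, so such genes could hardly pass. Their median change was −0.29 in set 1 and −0.003 in set 2, and 9 of the 26 were above 0.

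The gradient of 29 genes changed between P0 and P8, which is 0.178% of the tested genes (limma with the dissection set as a block, Benjamini-Hochberg adjusted p under 0.05). In 23 genes, 0.141% of those tested, the signal shifted toward the apex, so that apex minus base was higher at P8. In 6 genes, 0.0368%, it shifted toward the base. With every array centred on its median the split was 25 toward the apex and 2 toward the base, and 24 of the 29 genes were among them. Without the P0 apex array of set 2 it was 7 toward the apex and 6 toward the base. At an unadjusted p under 0.05 the directions were near even, with 534 genes toward the apex and 529 toward the base. An adjusted p in these data rests on the block, which takes out a shared offset between the 2 pooled sets. It measures how far the differences between groups varied from set to set. Without the block no gene passed, the smallest adjusted p being 0.0581 for Tecta (215 toward the apex and 118 toward the base at an unadjusted p under 0.05). Leaving out any 1 of the 8 arrays left between 1 and 13 genes past the test (3 without the P0 apex array of set 1), and Tecta was the only one of the 29 past it in every case.

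The size of the change in the 29 genes ran from 1.10 to 2.63, or from 2.14-fold to 6.20-fold as a ratio of the 2 apex-to-base ratios. All 29 changed in the same direction in both dissection sets, which the test had used to pass them. Over all tested genes 9007 of 16306 did so, or 55.2%, and the changes in the 2 sets correlated across genes with r = 0.255. A gradient is counted below as present where the ends differ by at least 1.5-fold. By this measure 16 of the 29 genes gained a gradient toward the apex and 3 toward the base, 3 lost an apical and 3 a basal gradient, and 4 turned from basal to apical. No gene past the test turned from apical to basal, and none had a gradient at both ages in the same direction. These absences rest on the block. With the pool, so the set within each age, as the block, 151 genes passed, of which 2 turned from apical to basal, 4 widened and 2 narrowed. Of the 48 genes named below as not past the test, 29 passed with that block.

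**Figure D1:**
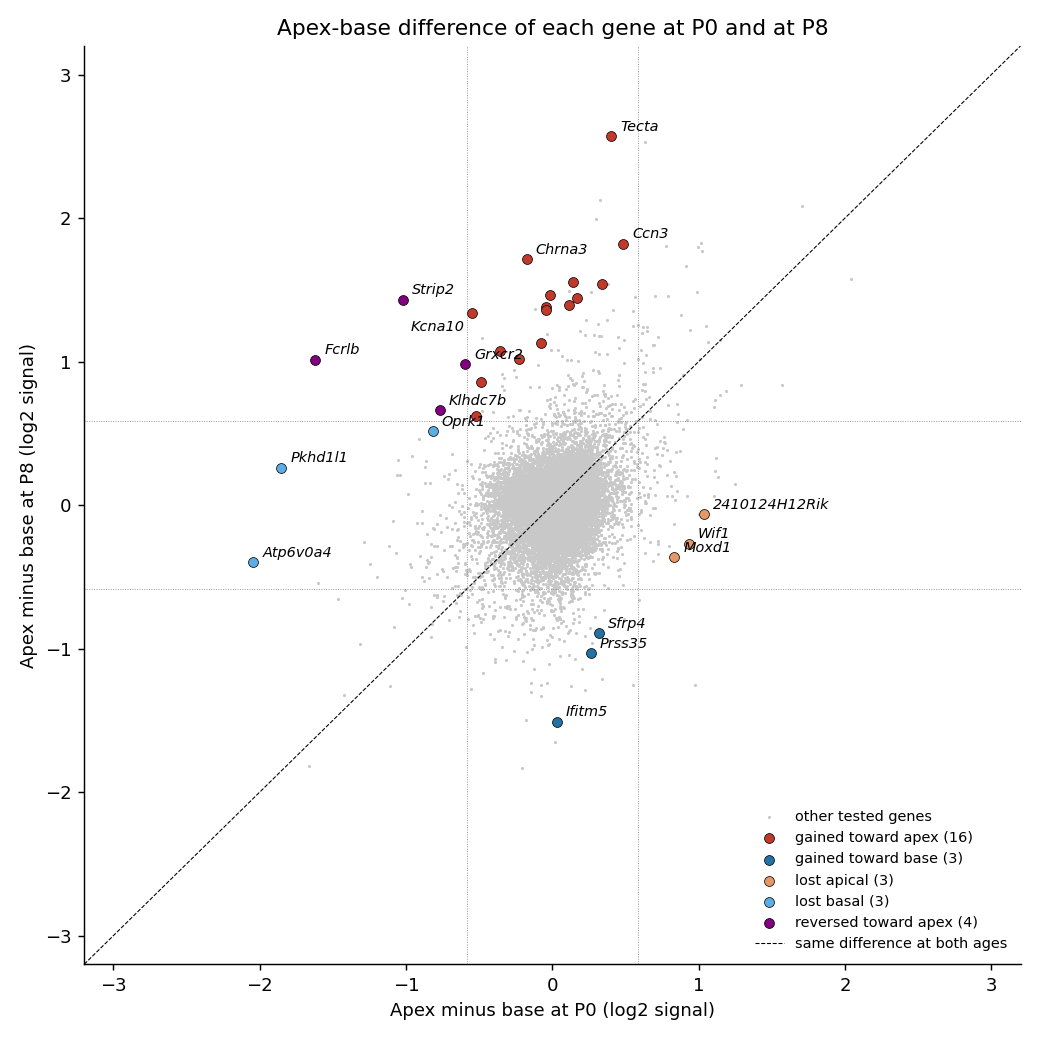
Apex minus base at P0 (x axis) and at P8 (y axis), in log2 signal, for each of the 16306 tested genes as a grey point, with the 29 genes past the test in colour by class and the number of each class in the legend. Dotted lines mark 1.5-fold, the dashed line an equal difference at both ages; 23 coloured points lie above the dashed line and 6 below it, and Tecta is the highest point at 2.57.

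The tectorial membrane is an acellular gel over the hair cells. Its main noncollagenous protein, alpha-tectorin, is encoded by Tecta, the gene with the smallest adjusted p. Tecta was at 11.96 and 12.09 in the P0 base, 12.38 and 12.46 in the P0 apex, 8.82 and 8.85 in the P8 base and 11.26 and 11.55 in the P8 apex. At P0 the ends were close, and at P8 both base arrays lay below every other Tecta value. The gradient was 0.40 at P0 and 2.57 at P8, a change of 2.17 ± 0.16 (SE, n = 2 arrays per group, adjusted p = 5.84e-04), or 4.50-fold. From P0 to P8 Tecta fell by 3.19 ± 0.11 in the base and fell by 1.02 ± 0.11 in the apex. The middle lay between them, at 10.03 at P8.

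The other genes of the gel did not pass. Tectb, which encodes beta-tectorin, had a gradient of 1.14 at P0 and 1.15 at P8, a change of 0.01 ± 0.19 with a 95% interval from −0.42 to 0.44. Otog and Otogl, which encode otogelin and an otogelin-like glycoprotein, gave changes of 0.67 ± 0.16 and 0.75 ± 0.24 (adjusted p = 0.207 and 0.51). Of the 8 tested genes of this group 1 passed, and 5 had a change above 0. Their median change was 0.31 (0.12 in set 1 and 0.43 in set 2), and the lowest was −0.48. At an unadjusted p under 0.05, 4 lay toward the apex and 1 toward the base. The median gradient of the group was 0.49 at P0 and 1.20 at P8.

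The promoters of 4 of the 29 genes are shown, because these genes moved in opposite directions between the ends. Tecta, the hair cell channel gene Kcna10 and Strip2 shifted toward the apex, and the osteoblast gene Ifitm5 shifted toward the base. The promoters are RefSeq sequences of build GRCm38.p6, 250 bases before to 50 bases after the gene start, read 5′ to 3′ on the strand of the gene. Of the 29 genes, 19 had a promoter in the table. Capitals mark matches on either strand to any of 8 motifs.
Tecta, chr9:42401641-42401940, minus strand: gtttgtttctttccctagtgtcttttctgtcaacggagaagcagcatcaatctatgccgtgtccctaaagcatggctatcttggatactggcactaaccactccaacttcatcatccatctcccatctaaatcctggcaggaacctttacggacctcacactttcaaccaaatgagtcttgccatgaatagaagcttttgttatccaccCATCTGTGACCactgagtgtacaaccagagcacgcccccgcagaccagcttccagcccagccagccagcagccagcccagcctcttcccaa
Kcna10, chr3:107182893-107183192, plus strand: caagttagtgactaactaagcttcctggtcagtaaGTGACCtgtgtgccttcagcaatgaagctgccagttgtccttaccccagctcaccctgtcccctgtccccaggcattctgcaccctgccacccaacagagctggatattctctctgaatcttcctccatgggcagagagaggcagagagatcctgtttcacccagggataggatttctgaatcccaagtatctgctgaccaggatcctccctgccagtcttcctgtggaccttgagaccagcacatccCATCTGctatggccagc
Strip2, chr6:29916763-29917062, plus strand: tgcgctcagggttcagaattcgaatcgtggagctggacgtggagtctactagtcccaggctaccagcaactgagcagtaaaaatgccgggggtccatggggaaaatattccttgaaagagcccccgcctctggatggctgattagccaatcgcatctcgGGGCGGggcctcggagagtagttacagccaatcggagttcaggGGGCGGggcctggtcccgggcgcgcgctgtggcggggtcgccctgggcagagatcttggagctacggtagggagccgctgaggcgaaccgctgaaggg
Ifitm5, chr7:140950194-140950493, minus strand: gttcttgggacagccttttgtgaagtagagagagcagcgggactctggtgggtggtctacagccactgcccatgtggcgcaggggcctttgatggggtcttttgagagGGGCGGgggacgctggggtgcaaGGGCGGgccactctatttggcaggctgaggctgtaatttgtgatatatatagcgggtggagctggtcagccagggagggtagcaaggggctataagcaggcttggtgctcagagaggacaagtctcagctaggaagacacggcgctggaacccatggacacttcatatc
The E-box CAGATG, a site for basic helix-loop-helix factors, was found 41 bases before the start of Tecta and 34 bases after that of Kcna10, and 17.2% of all promoters hold it. In Tecta it overlaps a match to the nuclear receptor motif GGTCAC, which also stands 215 bases before the Kcna10 start and is in 14.9% of promoters. The GC box CCGCCC was found at 2 places each in Strip2 and Ifitm5, genes that shifted in opposite directions, and is in 35.7% of promoters. The remaining motifs searched were the E-boxes CAGCTG (16.3%) and CACGTG (7.15%), TATAAA (13.6%), GATAAG (7.44%) and TGACTCA (5.2%), with no match in these 4 windows. A match describes letters in the window only.

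Hair cells turn sound into electrical signals through their hair bundles. Kcna10, Rbm24, Ptprq, Grxcr2 and Pkhd1l1, all known from hair cells, were past the test and shifted toward the apex. Kcna10 encodes a voltage-gated potassium channel. Kcna10 was at 7.24 and 7.76 in the P0 base, 6.78 and 7.13 in the P0 apex, 7.67 and 7.87 in the P8 base and 8.78 and 9.43 in the P8 apex. The apex was the lower end in both sets at P0 and the higher end in both sets at P8. Its gradient went from −0.55 to 1.34, a change of 1.88 ± 0.22 (adjusted p = 0.011). The apical signal rose by 2.15 and the basal signal gave 0.27 (adjusted p = 0.288).

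Rbm24 encodes an RNA-binding protein that controls splicing. Rbm24 was at 8.30 and 8.31 in the P0 base, 8.44 and 8.40 in the P0 apex, 8.13 and 8.11 in the P8 base and 9.49 and 9.54 in the P8 apex. The SD between the arrays of a base or apex group was at most 0.0362, and both P8 apex arrays were above all others. The change was 1.28 ± 0.15 (adjusted p = 0.011), with −0.19 in the base and a rise by 1.09 in the apex.

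Ptprq encodes a phosphatase of the connectors between stereocilia. Ptprq was at 8.54 and 9.44 in the P0 base, 8.48 and 8.79 in the P0 apex, 8.35 and 8.75 in the P8 base and 9.54 and 9.72 in the P8 apex. The ends overlapped at P0 over the sets and were apart at P8, with a change of 1.43 ± 0.23 (adjusted p = 0.0466). Grxcr2, a glutaredoxin-like protein of stereocilia, turned round. Grxcr2 was at 8.33 and 9.0 in the P0 base, 7.96 and 8.18 in the P0 apex, 7.63 and 7.75 in the P8 base and 8.43 and 8.91 in the P8 apex. At P0 the apex was below the base within each set, and at P8 above it. The gradient moved from −0.59 to 0.98, a change of 1.58 ± 0.20 (adjusted p = 0.0166), as the base fell by 0.98 and the apex rose by 0.60.

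Strip2, which encodes a protein of striatin-associated phosphatase complexes, turned round as well. Strip2 was at 7.35 and 8.21 in the P0 base, 6.84 and 6.69 in the P0 apex, 7.75 and 8.13 in the P8 base and 9.20 and 9.54 in the P8 apex. Of the 8 arrays, the P8 apex arrays were the highest and the P0 apex arrays the lowest. The change was 2.45 ± 0.27 (adjusted p = 0.011), or 5.46-fold, with a gradient of −1.02 at P0 and 1.43 at P8. The base gave 0.16 from P0 to P8 (adjusted p = 0.668), and the apex rose by 2.61.

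Pkhd1l1, which encodes a large membrane protein of the stereocilia surface, lost a basal gradient. Pkhd1l1 was at 7.23 and 8.06 in the P0 base, 5.79 and 5.80 in the P0 apex, 6.13 and 6.29 in the P8 base and 6.51 and 6.43 in the P8 apex. The P0 apex was under the level of 6 on both arrays, and all P8 arrays lay between it and the P0 base. The apex-base difference went from −1.85 to 0.26, a change of 2.12 ± 0.32 (adjusted p = 0.0366). The base fell by 1.44, and the apex gave 0.68 (adjusted p = 0.0583).

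The other genes of these lists were mostly displaced in the same direction without passing. Of 31 tested hair cell genes 3 passed toward the apex and none toward the base, 25 had a change above 0, and the median change was 0.51. Of 30 tested genes of the bundle, transduction and Usher syndrome 2 passed, 24 were above 0, and the median was 0.29. At an unadjusted p under 0.05, 14 hair cell genes lay toward the apex and 3 toward the base. For the bundle list these counts were 12 and 2. Over all tested genes 7409 of 16306 were above 0 and the median was −0.03. Of 17 Schwann cell and myelin genes 15 were above 0, with a median of 0.35, and their part in the result was not tested. Several genes stand in both of the first lists, and the lists were drawn up with results of these arrays known. The mean signal of the hair cell list ran from 7.93 to 8.06 in the P0 base, 8.01 to 8.03 in the P0 apex, 7.87 to 8.01 in the P8 base and 8.33 to 8.72 in the P8 apex.

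Members of these lists that did not pass include Tmc2, a transduction channel gene of early postnatal hair cells, with a gradient of −0.91 at P0, 0.46 at P8 and a change of 1.37 ± 0.27 (adjusted p = 0.102). Its P8 base was under the level of 6. Otof, the calcium sensor of the hair cell synapse, gave 0.91 ± 0.18 (adjusted p = 0.102). Chrna10, a subunit of the receptor by which efferent nerve fibres act on outer hair cells, gave 1.20 ± 0.24 (adjusted p = 0.108), Smpx 1.16 ± 0.27 and Calb2 1.64 ± 0.46 (adjusted p = 0.217 and 0.357). The sets gave 0.88 and 2.41 for Calb2, and its change was 0.99 without the P8 base array of set 2 and 2.3 without that of set 1. Values against this direction included −0.45 ± 0.19 for Atoh1, the transcription factor that starts hair cell formation, and −0.38 ± 0.16 for Pcdh15, a tip link protein (adjusted p = 0.755 and 0.752). The lowest change was −0.64 in each of these lists.

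**Figure D2:**
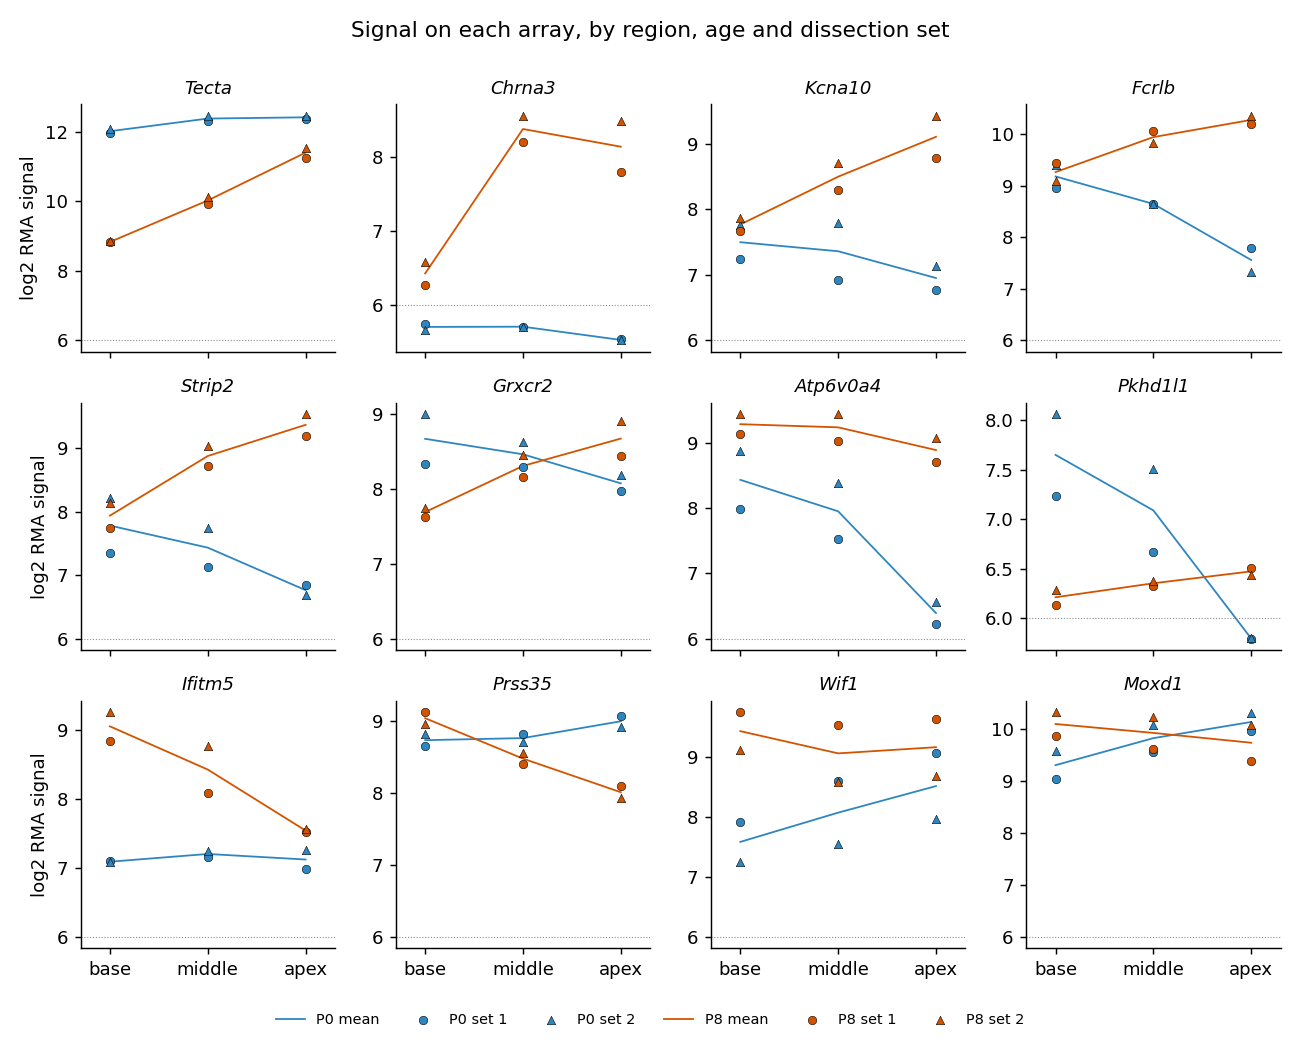
Log2 RMA signal (y axis, a separate range in each panel) in base, middle and apex (x axis) for 12 of the 29 genes, at P0 (blue) and P8 (orange); circles are dissection set 1, triangles set 2, lines the means of 2 arrays and dotted lines the level of 6. The lines of Tecta come apart at the base, those of Kcna10, Fcrlb and Strip2 at the apex, and the 2 lines cross for Grxcr2.

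The remaining reversals were Fcrlb and Klhdc7b. Fcrlb encodes an Fc receptor-like protein, and its change was the largest of all tested genes. Fcrlb was at 8.95 and 9.41 in the P0 base, 7.78 and 7.33 in the P0 apex, 9.44 and 9.08 in the P8 base and 10.19 and 10.36 in the P8 apex. Both P0 apex arrays were below all others and both P8 apex arrays above them, while the base overlapped between the ages. Its gradient went from −1.62 to 1.01, a change of 2.63 ± 0.28 (adjusted p = 0.011), or 6.20-fold. The change was 1.91 in the first set and 3.35 in the second. Klhdc7b, a kelch domain protein, changed by 1.43 ± 0.23 (adjusted p = 0.0467), from −0.77 to 0.66. By their means, 4 of all tested genes went from at least 1.5-fold basal to at least 1.5-fold apical, and the change passed in all 4. In the same fit the gradient itself passed at both ages in Fcrlb (adjusted p = 0.0076 at P0 and 0.0256 at P8) and in Strip2 (0.0467 and 0.0038). For Grxcr2 it passed at P8 alone (0.108 and 0.0050), and for Klhdc7b at neither age (0.0779 and 0.0860). In the opposite direction there were 2, Ibsp at −2.23 ± 0.55 and Gcnt1 at −1.25 ± 0.23, and neither passed (adjusted p = 0.253 and 0.0764). Both passed with the pool as the block (adjusted p = 0.0448 and 0.00218). Ibsp, a bone matrix protein, was at 8.08 in the P0 apex of set 1, the array with the highest muscle signal, and at 5.96 in that of set 2, so that its gradients at P0 were 1.75 and 0.20. Its change was −1.41 without the first of these arrays and −3.05 without the second.

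Chrna3, which encodes the alpha 3 subunit of nicotinic acetylcholine receptors, gained its apical gradient from a low start. Chrna3 was at 5.74 and 5.66 in the P0 base, 5.53 and 5.52 in the P0 apex, 6.27 and 6.58 in the P8 base and 7.80 and 8.48 in the P8 apex. All 4 P0 arrays lay under the level of 6, and both P8 apex arrays lay above both P8 base arrays. The gradient at P8 was 1.71 and the change 1.89 ± 0.25 (adjusted p = 0.0222). The signal rose at both ends, by 0.72 in the base and by 2.61 in the apex, and by 2.67 in the middle, the 1 gene of the 29 in which the middle did not lie between the ends. Of 13 tested nicotinic subunits Chrna3 alone passed, and the median change was 0.40. Chrnb4, a partner subunit, gave 0.97 ± 0.21 (adjusted p = 0.163).

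Syt1 and Slitrk6 are genes of synapses and of innervation. Syt1 encodes a calcium sensor of synaptic vesicles. Syt1 was at 9.94 and 10.43 in the P0 base, 10.20 and 10.84 in the P0 apex, 8.66 and 9.17 in the P8 base and 10.28 and 10.64 in the P8 apex. The P8 base arrays lay below all others, and the change was 1.20 ± 0.17 (adjusted p = 0.0245). The base fell by 1.26 and the apex gave −0.06 (adjusted p = 0.739). Slitrk6, a transmembrane protein needed for innervation of the inner ear, had a similar pattern. Slitrk6 was at 8.17 and 7.93 in the P0 base, 8.32 and 8.13 in the P0 apex, 7.05 and 7.00 in the P8 base and 8.46 and 8.48 in the P8 apex. The P8 base stood apart from the other groups, and the change was 1.27 ± 0.20 (adjusted p = 0.0383) with a fall by 1.03 in the base and 0.25 in the apex (adjusted p = 0.233).

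Syt1 was the single gene past the test among 27 of spiral ganglion neurons, whose median change was 0.16, and Slitrk6 among 49 of axon guidance and neuronal adhesion, with a median of −0.08. The mean signal of the neuron list was 7.06 to 7.43 in the P8 base, 7.56 to 7.66 in the P8 apex and 8.13 to 8.35 in the P0 base and apex. Scg2, a secretory granule protein, gave 1.37 ± 0.23 (adjusted p = 0.0513), and Scn9a, a sodium channel, −1.08 ± 0.23 (adjusted p = 0.149), in opposite directions. Of 17 Schwann cell and myelin genes none passed (2 toward the apex and none toward the base at an unadjusted p under 0.05), while 15 had a change above 0 and the median was 0.35.

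Atp6v0a4 encodes a subunit of the proton pump that acidifies fluids in kidney and inner ear, and it lost a basal gradient. Atp6v0a4 was at 7.99 and 8.88 in the P0 base, 6.22 and 6.57 in the P0 apex, 9.13 and 9.45 in the P8 base and 8.71 and 9.08 in the P8 apex. The P0 apex arrays lay below all others, and at P8 both apex arrays were still below both base arrays. The gradient went from −2.04 to −0.40, a change of 1.65 ± 0.23 (adjusted p = 0.0246). Both ends rose, by 0.85 in the base and by 2.50 in the apex. Of 18 acid-base transport, outer sulcus and root cell genes it alone passed, 15 were above 0 and the median change was 0.41. Aqp5, a water channel, gave 1.13 ± 0.20, Atp6v1c2, another pump subunit, 1.06 ± 0.22, and the anion exchanger Slc26a7 −0.99 ± 0.22 (adjusted p = 0.0627, 0.142 and 0.187).

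Oprk1, the kappa opioid receptor, was the third gene with a lost basal gradient. Oprk1 was at 6.10 and 6.34 in the P0 base, 5.23 and 5.58 in the P0 apex, 5.99 and 5.66 in the P8 base and 6.34 and 6.34 in the P8 apex. The P0 apex and the P8 base had means under the level of 6, so that each gradient had 1 end under that level. The gradient went from −0.82 to 0.51, a change of 1.33 ± 0.22 (adjusted p = 0.0465). At P8 the apex was above the base in both sets, by 0.35 and 0.68, but by less than 1.5-fold in the mean.

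Ccn3 encodes a secreted matricellular protein of the CCN family. Ccn3 was at 10.70 and 10.62 in the P0 base, 11.21 and 11.07 in the P0 apex, 9.88 and 9.35 in the P8 base and 11.61 and 11.26 in the P8 apex. The P8 base arrays were the lowest and the P8 apex arrays the highest of the 8. The change was 1.34 ± 0.20 (adjusted p = 0.0366), with a fall by 1.05 in the base and 0.29 in the apex (adjusted p = 0.174). Of 32 matricellular and elastic fibre genes no other passed, and the median was 0.03. Tnc, which encodes tenascin C, had a larger change of 1.89 ± 0.33, from 0.64 to 2.53, but the sets differed (1.24 and 2.54) and it did not pass (adjusted p = 0.0655).

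Cybrd1, an iron-reducing enzyme of the plasma membrane, and Cpa6, a secreted carboxypeptidase, gained apical gradients in different ways. Cybrd1 had −0.05 at P0 and 1.38 at P8, a change of 1.42 ± 0.17 (adjusted p = 0.0151), and its base fell by 1.60. Cpa6 was at 7.24 and 8.56 in the P0 base, 7.41 and 8.35 in the P0 apex, 8.48 and 9.40 in the P8 base and 10.04 and 10.77 in the P8 apex. The SD between the sets of Cpa6 reached 0.935 in the P0 base, and the ends overlapped at P0, but within each set the apex was 1.36 to 1.56 above the base at P8. Its change was 1.48 ± 0.22 (adjusted p = 0.0366), and it rose at both ends, by 1.04 in the base and 2.53 in the apex.

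The 6 others that gained an apical gradient had changes between 1.14 and 1.41. Glb1l2, a beta-galactosidase-like protein, changed by 1.41 ± 0.23 and B130016D09Rik by 1.41 ± 0.19 (adjusted p = 0.0465 and 0.0222). Plcd4, a phospholipase C, changed by 1.35 ± 0.21, and Faim2, an inhibitor of Fas-induced cell death, by 1.24 ± 0.19 (both adjusted p = 0.0368). Pla2g4e, a cytosolic phospholipase A2, changed by 1.21 ± 0.16 and Dytn by 1.14 ± 0.15 (both adjusted p = 0.0222). The Dytn gradient was −0.52 at P0, toward the base but under 1.5-fold, and 0.62 at P8. Plcd4, Faim2, Pla2g4e and Dytn fall outside the rule by which genes were named and are given to complete the class.

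The 6 genes that shifted toward the base were led by Ifitm5, which encodes a membrane protein of osteoblasts. Ifitm5 was at 7.09 and 7.08 in the P0 base, 6.98 and 7.26 in the P0 apex, 8.84 and 9.25 in the P8 base and 7.52 and 7.56 in the P8 apex. The ends overlapped at P0, and at P8 both base arrays were above all others. The gradient moved from 0.03 to −1.51, a change of −1.54 ± 0.23 (adjusted p = 0.0366). The base rose by 1.96 and the apex gave 0.42 (adjusted p = 0.0943).

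Bone genes mark bone tissue, and the otic capsule was taken off before the spiral was cut. Of 14 tested bone and osteoblast genes Ifitm5 was past the test, 3 were above 0, and the median change was −0.43. The mean signal of the list was 7.57 to 7.60 in the P0 base, 7.42 to 7.72 in the P0 apex, 9.49 to 9.69 in the P8 base and 8.67 to 9.31 in the P8 apex. Ibsp, which encodes bone sialoprotein, had a mean of 12.06 in the P8 base and 10.81 in the P8 apex. Dmp1 gave −1.51 ± 0.42 and Smpd3 −1.14 ± 0.23 (adjusted p = 0.355 and 0.126). The part of bone tissue in the change of Ifitm5 was not tested.

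Prss35 encodes a serine protease-like protein. Prss35 was at 8.66 and 8.82 in the P0 base, 9.08 and 8.92 in the P0 apex, 9.13 and 8.96 in the P8 base and 8.10 and 7.93 in the P8 apex. At P8 the gradient was −1.03 in both sets, and no base array was below an apex array. The apex-base difference went from 0.26 to −1.03, a change of −1.29 ± 0.18 (adjusted p = 0.0245), with a fall by 0.99 in the apex and 0.31 in the base (adjusted p = 0.144).

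Sfrp4 and Wif1 both encode secreted antagonists of Wnt signals, and both shifted toward the base. Sfrp4 was at 6.12 and 5.73 in the P0 base, 6.57 and 5.92 in the P0 apex, 10.62 and 9.98 in the P8 base and 9.77 and 9.05 in the P8 apex. The signal rose more than in any other of the 29 genes, by 4.38 in the base and by 3.17 in the apex, and the P0 base mean was under the level of 6. Its gradient went from 0.32 to −0.89, a change of −1.21 ± 0.19 (adjusted p = 0.0387). Wif1 lost an apical gradient. Wif1 was at 7.92 and 7.25 in the P0 base, 9.07 and 7.97 in the P0 apex, 9.76 and 9.12 in the P8 base and 9.65 and 8.69 in the P8 apex. The second set was below the first in every group, and within each set the apex was above the base at P0 and below it at P8. The change was −1.20 ± 0.20 (adjusted p = 0.0473), as the base rose by 1.85 and the apex by 0.65. No other of the 36 tested Wnt genes passed, and the median change of the list was 0.03. Sfrp2, a relative of Sfrp4, gave 1.02 ± 0.19, in the opposite direction (adjusted p = 0.0764).

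Moxd1, a monooxygenase related to dopamine beta-hydroxylase, and 2410124H12Rik also lost an apical gradient. Moxd1 was at 9.04 and 9.58 in the P0 base, 9.96 and 10.32 in the P0 apex, 9.87 and 10.33 in the P8 base and 9.39 and 10.09 in the P8 apex. In each set the apex was above the base at P0 and below it at P8, with a change of −1.19 ± 0.17 (adjusted p = 0.0245). 2410124H12Rik changed by −1.10 ± 0.17 (adjusted p = 0.0368), from 1.03 to −0.06, and was under the level of 6 at both ends at P8.

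**Figure D3:**
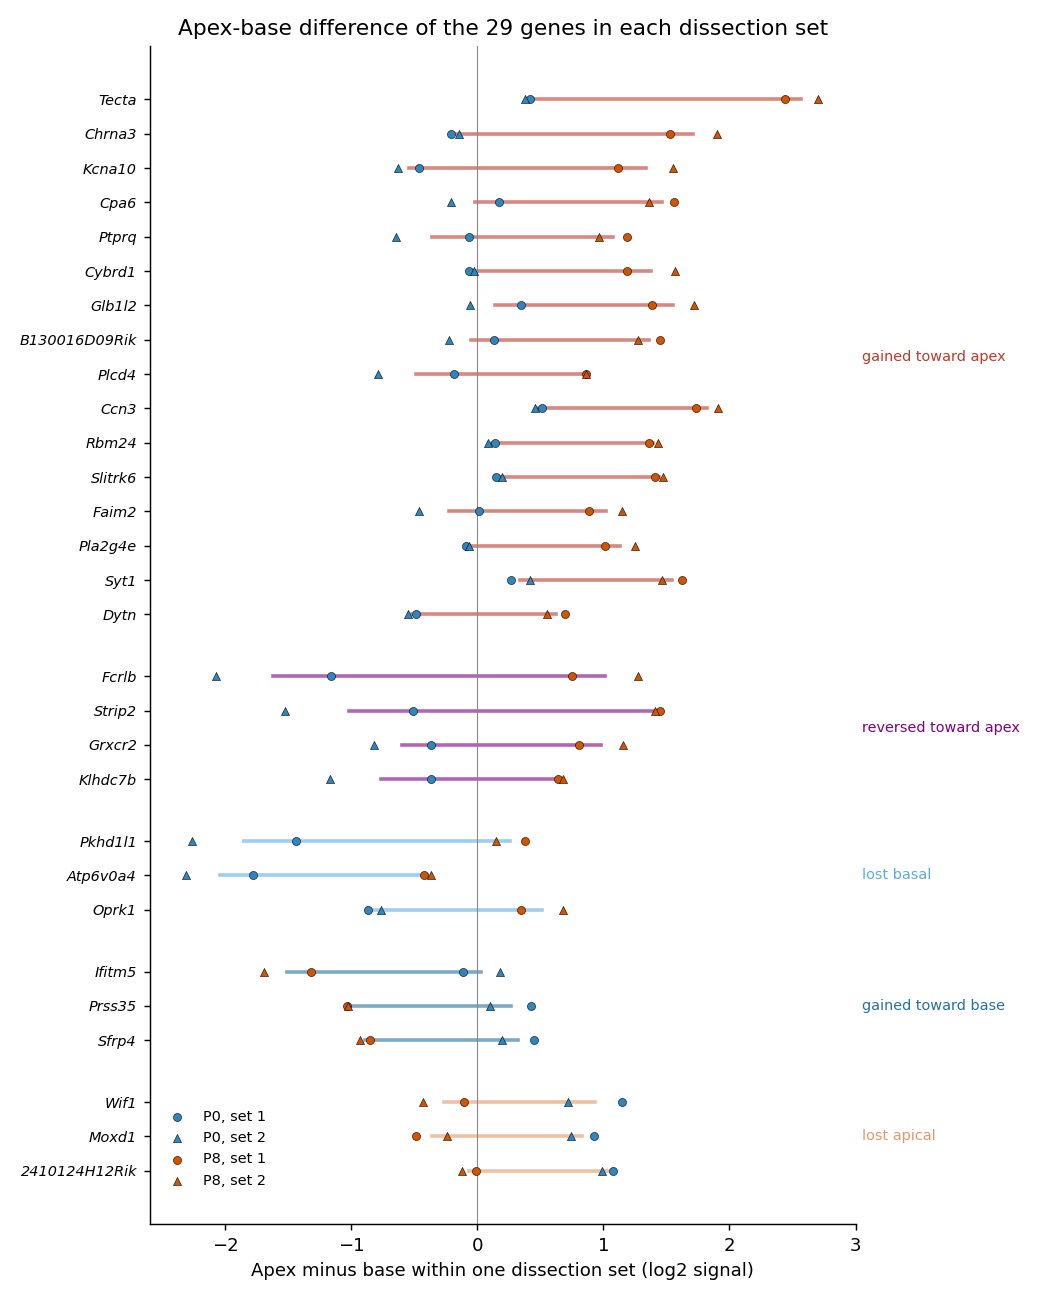
Apex minus base within each dissection set (x axis, log2 signal) for the 29 genes (rows), at P0 (blue) and P8 (orange), with circles for set 1 and triangles for set 2; bars join the 2-set means of the ages and are coloured by class. In each gene both orange points lie on the same side of both blue points, and the sets are farthest apart for Fcrlb and Strip2 at P0.

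A change of gradient can come from either end. Among the 16 genes that gained an apical gradient, the basal signal fell past the test in 5 (Tecta, Cybrd1, Syt1, Ccn3 and Slitrk6), where 6.73% of all tested genes fell in the base. The apical signal rose past the test in 11, where 9.17% of all tested genes rose in the apex. A shift of the gradient is itself the difference of these changes, so these counts only describe the members. None of the 5 was among the 11. The genes were chosen by a difference between the ends, and this overlap was not counted over all tested genes, so nothing is read from it. By sign alone, the base fell and the apex rose in 8 of the 16 genes and in 2191 of all 16306. These counts, too, only describe the members. In 28 of the 29 genes, Chrna3 being the exception, the middle turn changed by an amount between those of the ends, which were far apart in all 29 by the choice of the genes. Over all 16306 tested genes the middle lay between the ends in 8187, or 50.2%.

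**Figure D4:**
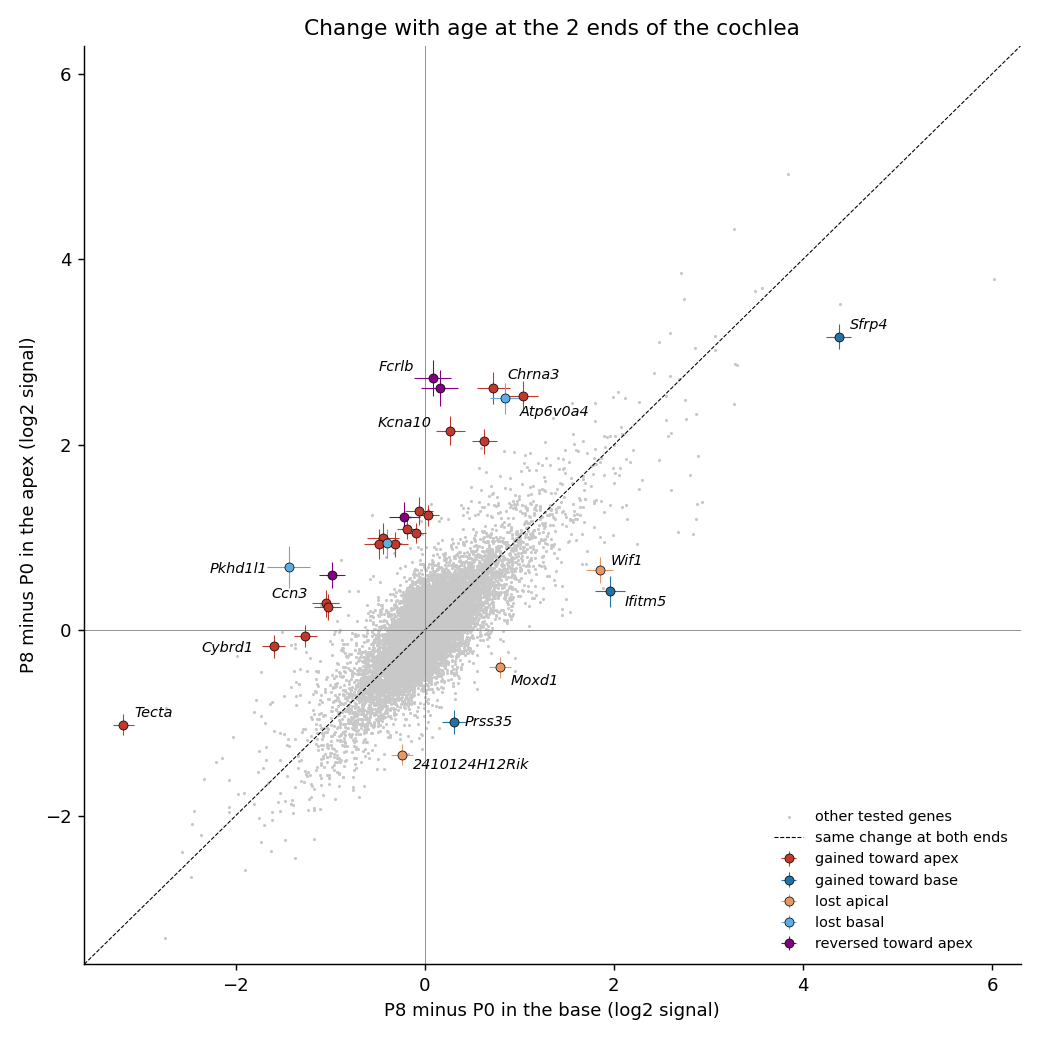
P8 minus P0 in the base (x axis) and in the apex (y axis), in log2 signal, with the 29 genes in colour by class (error bars are SE of the fit, n = 2 arrays per group) and the other tested genes in grey. Genes above the dashed line shifted toward the apex; Tecta lies farthest left, at −3.19 in the base, and Sfrp4 farthest right of the coloured genes.

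Gradients that only widened or narrowed did not pass the test with the set as the block. By their means alone 50 genes had a wider gradient at P8, by any amount, and 30 a narrower one. Each of these gradients was at least 1.5-fold at both ages, in the same direction. Among the named genes with a wider gradient Tnc, given above with Ccn3, had the largest change. Prkcq, a protein kinase C, went from 0.99 to 1.80, a change of 0.80 ± 0.19 (adjusted p = 0.234). Qrfprl, a G protein-coupled receptor, changed by 1.03 ± 0.30 and Plch1, a phospholipase C, by 0.75 ± 0.20 (adjusted p = 0.422 and 0.291). Isl1, a transcription factor, had gradients of 1.02 and 1.77, and Fst, the activin antagonist follistatin, of 1.70 and 2.09, with changes of 0.75 ± 0.20 and 0.38 ± 0.20 (adjusted p = 0.317 and 0.767). For Fst the sets gave 0.04 and 0.73, and its change was 0.16 without the P8 base array of set 2 and 0.61 without that of set 1. Among narrowed gradients Ndst3 went from 1.57 to 0.84 and Cyp3a13 from −1.47 to −0.66 (adjusted p = 0.352 and 0.194). With the pool as the block 4 widened gradients passed. Among them were Qrfprl, Plch1 and Otogl, at adjusted p = 0.0371, 0.0412 and 0.0242. The narrowed gradients of Ndst3 and Cyp3a13 also passed with that block, at adjusted p = 0.0497 and 0.0404.

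By means alone, 272 genes had a gradient of at least 1.5-fold at P0, 534 at P8 and 86 at both ages. Without regard to the test, 198 genes gained an apical and 250 a basal gradient, and 86 lost an apical and 100 a basal one. Of the 29 genes, 8 were also past the test for the gradient at P0 and 22 for that at P8. Over all 16306 tested genes these counts were 112 and 279. The change that chose the 29 is the difference of the 2 gradients, so the counts only describe the members. Genes named by these means that did not pass include Vmo1, which gained a basal gradient of −1.26 with a change of −1.81 ± 0.54, and Fndc3c1, which lost an apical one with a change of −1.10 ± 0.34 (adjusted p = 0.441 and 0.494). Gipc3, a protein needed for hearing, had less than 1.5-fold between the ends at each age but a change of 0.94 ± 0.19 (adjusted p = 0.108), as did Aox3, Il33 and, toward the base, Aspn at 0.93 ± 0.17, 0.93 ± 0.18 and −1.04 ± 0.31 (adjusted p = 0.0744, 0.109 and 0.441).

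**Figure D5:**
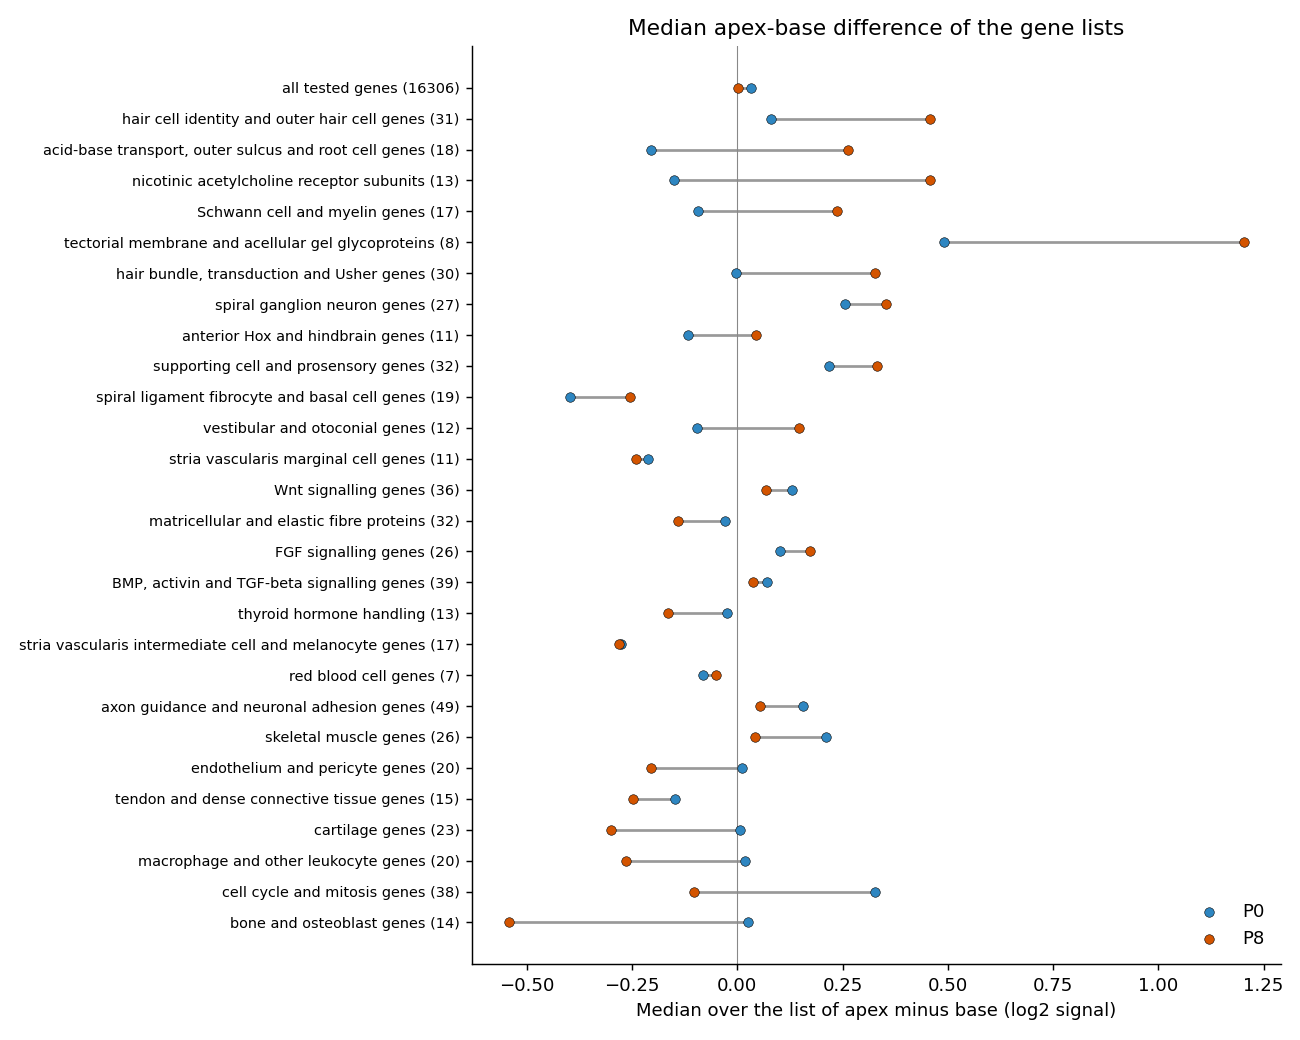
Median over each gene list of apex minus base (x axis, log2 signal) at P0 (blue) and P8 (orange), with lists as rows, the number of tested genes in parentheses and all tested genes on top. The orange point lies right of the blue for the hair cell, nicotinic and tectorial lists and left of it for the cell cycle list (0.33 at P0, −0.10 at P8) and the bone list (0.03 and −0.54).

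Cell division ends earlier in the apex than in the base of the sensory epithelium, and a whole piece also holds other cells. Of 38 cell cycle and mitosis genes 1 had a change above 0, the median change was −0.42, and none passed (15 toward the base and none toward the apex at an unadjusted p under 0.05, against 529 and 534 of all tested genes). The mean signal of the list was 7.65 to 7.79 in the P0 base, 8.00 to 8.09 in the P0 apex, 6.78 to 6.86 in the P8 base and 6.68 to 6.72 in the P8 apex. Cks2, Kif11 and Cdk1 gave −0.82 ± 0.39, −0.77 ± 0.26 and −0.77 ± 0.30 (adjusted p = 0.764, 0.584 and 0.696). In Cdk1 the sets gave −1.46 and −0.07. Each of these values lay toward the base at P8.

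Cartilage genes gave a median change of −0.25 over 23 genes, with none past the test (1 toward the apex and 3 toward the base at an unadjusted p under 0.05). This median was −0.36 in the first set and −0.003 in the second. Hapln1, a cartilage link protein, gave −2.64 in the first set and 0.44 in the second, and Ucma, a cartilage matrix protein, 0.31 and 1.79. These sets did not match. Tendon genes had a median of −0.25 over 15 genes, with −0.40 in the first set and −0.06 in the second. Tnmd, tenomodulin, was at −1.62 ± 0.40 (adjusted p = 0.253). The Tnmd change was −0.99 without the P0 apex array of set 1 and −2.25 without that of set 2. None of the tendon genes passed (1 and 4 at an unadjusted p under 0.05).

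Lists of supporting cells, fibrocytes, marginal cells and intermediate cells held no gene past the test. Medians were 0.06 over 32 supporting cell and prosensory genes (5 toward the apex and 1 toward the base at an unadjusted p under 0.05), 0.06 over 19 fibrocyte and basal cell genes (5 and 3), 0.05 over 11 marginal cell genes (1 and 1) and −0.03 over 17 intermediate cell and melanocyte genes (0 and 2). Crym, a thyroid hormone-binding protein of fibrocytes, gave −1.08 ± 0.26 and Dio2, the enzyme that activates thyroid hormone, −0.88 ± 0.26 (adjusted p = 0.228 and 0.441). Among 13 genes of thyroid hormone handling the median was −0.02, with −0.32 in the first set and 0.08 in the second, and none passed (0 toward the apex and 4 toward the base at an unadjusted p under 0.05). Kcnma1, a potassium channel gene, gave −0.62 ± 0.21 and Ush1c, a bundle protein, 0.48 ± 0.18 (adjusted p = 0.593 and 0.657).

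Signalling lists other than Wnt, and lists of other cells, also held none. The medians were −0.01 over 39 BMP, activin and TGF-beta genes, 0.03 over 26 FGF genes and 0.14 over 11 anterior Hox and hindbrain genes. For blood and vessels they were −0.04 over 7 red blood cell genes, −0.27 over 20 macrophage and other leukocyte genes and −0.19 over 20 endothelium and pericyte genes, and for 12 vestibular and otoconial genes 0.06. At an unadjusted p under 0.05, these 7 lists held 5 genes toward the apex and 8 toward the base. Otoa, a gel attachment protein, gave 0.61 ± 0.17, Myo3a, a myosin of stereocilia, 0.81 ± 0.22, and Xirp2, an actin-binding protein, 1.23 ± 0.30 (adjusted p = 0.357, 0.35 and 0.231).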

How the data were processed

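Each of 12 Affymetrix Mouse Gene 1.0 ST arrays was hybridized with RNA of 1 pooled piece of cochlea. The deposited values are log2 signals, which the authors obtained by robust multiarray averaging (RMA, named without a version in the submitters' processing notes). Whether RMA was run once over both sets is not given in the sources used here, and a separate run could put an offset between the sets. The values ran within the range of a log2 scale. Probe-level data were not used.

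Of 35556 entries, the 21789 with 1 gene symbol were used (1621 had several and 12146 none), which gives 19938 genes, each by its entry with the highest mean over the 12 arrays. The 16306 genes with a group mean above 6, the level in the study's methods, were tested, and 16253 of them were matched to RefSeq by Entrez identifier. The fit used lmFit and eBayes of limma 3.58.1 (R 4.3.3), with 6 group means and the dissection set (the year in the sample titles) as a block, which left 5 residual and 5.76 prior degrees of freedom. The contrast was apex minus base at P8 less apex minus base at P0, and the test was passed where p, adjusted by Benjamini-Hochberg over the 16306 genes, was under 0.05. The sets paired the arrays: differences between sets correlated across genes with r = 0.544 to 0.916 over the 15 pairs of groups, and the 3 pieces of an age and set share a pool. These r describe the offset shared by the arrays of a set. The change of gradient itself correlated between the sets with r = 0.255. The labels do not say whether the 2 sets of an age share parents or litters, so a p measures only the spread left between these arrays after the block. Classes follow the group means at 1.5-fold, and a 95% interval is that of the fit.

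Genes named are up to 8 per class with the largest change in the same direction in both sets. Classes under 4 were filled from genes at an unadjusted p under 0.01 that are given as not past the test. All list members past the test are named, with up to 3 further ones per list. Of the 44 tested genes the study discusses, which it chose on these arrays, only some are named. No rule set which of them were left out, and none of those left out passed the test. The genes, lists and tests were chosen with earlier results of these data known. The script was checked on data made with known changes. Alternatives were the block, the arrays, the filter, the entry per gene, another normalization or centring, an intensity trend, a fold threshold, the study's own test and each array left out. Motifs and figures were made with Python 3.11.15, pandas 2.3.3 and matplotlib 3.10.9.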

Additional observations from a re-analysis of the deposited data

Results flagged for a closer look

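The results that stand out are those in which the apex-base difference itself differed between the ages, by the interaction term of the limma fit. It was higher at P8 in 23 genes and lower in 6. On the log2 scale, with n = 2 arrays per group, the change among gained apical gradients was 1.41 for B130016D09Rik, 1.34 for Ccn3, 1.89 for Chrna3, 1.48 for Cpa6, 1.42 for Cybrd1, 1.14 for Dytn, 1.24 for Faim2, 1.41 for Glb1l2, 1.88 for Kcna10, 1.21 for Pla2g4e, 1.35 for Plcd4, 1.43 for Ptprq, 1.28 for Rbm24, 1.27 for Slitrk6, 1.20 for Syt1 and 2.17 for Tecta. Among reversed gradients it was 2.63 for Fcrlb, 1.58 for Grxcr2, 1.43 for Klhdc7b and 2.45 for Strip2, and among lost basal gradients 1.65 for Atp6v0a4, 1.33 for Oprk1 and 2.12 for Pkhd1l1. Toward the base it was −1.54 for Ifitm5, −1.29 for Prss35 and −1.21 for Sfrp4 for gained and −1.10 for 2410124H12Rik, −1.19 for Moxd1 and −1.20 for Wif1 for lost gradients. Groups of 2 arrays are too small for a test of single outlying arrays.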

How the results depend on the processing

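No gene passed without the replicate block by set, so that all 29 calls rest on the pairing of the arrays by dissection set: 0 were called toward the apex, 0 toward the base, and 0 gained, 0 lost and 0 reversed gradients. Blocking by pool, so by set within each age, let 151 pass, 96 toward the apex and 55 toward the base, among them all 29 (91 gained and 34 lost gradients). With the 8 base and apex arrays alone 13 passed, 12 toward the apex and 1 toward the base (7 gained, 3 lost). Median centring left 2 genes toward the base. The methods' t-test at each age, at an unadjusted p and 1.5-fold, gave 117 gained, 43 lost and 1 reversed gradients, and after Benjamini-Hochberg adjustment 0, 0 and 0. Leaving out 1 array gave 1 to 13 genes in all, 1 to 13 toward the apex and 0 to 6 toward the base, with 1 to 8 gained, 0 to 3 lost and 0 to 6 reversed. In all it was 1 without either base array of set 2, 3 without either the P0 apex array of set 1 or the P8 apex array of set 2, 5 without the P8 base and 11 without the P8 apex array of set 1, and 13 without either the P0 base array of set 1 or the P0 apex array of set 2. The change of Tectb lay between −0.13 and 0.15 in these fits and turned in sign. With no filter, a filter on the mean, the mean over a gene's entries, renewed quantile normalization, the intensity trend or a 1.5-fold threshold, 22 to 31 genes passed, of which 21 to 29 were among the 29. No named gene other than Tectb changed direction under any alternative.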
